A study of Mus musculus with 8 samples.

Results

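Genes typical of the large macrophages of the serous cavities, the 6 genes Gata6, Alox15, Prg4, F5, Cd5l and Tgfb2, were followed in the stromal vascular fraction (SVF) of gonadal white adipose tissue (WAT), the pelleted cells of a collagenase-digested fat pad after the floating adipocytes have been removed. The members were the 6 rows bearing these gene names, of 54532 genes in the count table, and all 6 had enough counts to be tested. The RNA came from 8 male C57BL/6J mice of a diet intervention model. All mice ate a high-fat diet (60% of calories from fat) for 12 weeks, were divided into groups by glucose tolerance and were then moved to normal chow (16% of calories from fat); their age at the start is not settled by the sources used here. From that switch they received 2 mg/kg of either a control antibody (Ab; isotype IgG1k, mice 1, 2, 6 and 9) or the anti-BAFF Ab Sandy-2 (mice 5, 7, 8 and 10) every 2 weeks for 6 weeks, until week 18. BAFF is a survival factor of B cells. One of the gonadal pads of each mouse was digested, red blood cells were lysed, and 1 library was sequenced per mouse. The question put to these genes was whether their levels differed between the antibodies, whether they rose and fell together from one pad to the next, and how they stood beside Ighv11-2, a heavy chain V gene used by B-1 cells.

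Large peritoneal macrophages are the main resident macrophages of the peritoneal fluid. Their identity depends on the transcription factor GATA6, which is kept up by retinoic acid from the lining and stroma of the cavity. They can leave the fluid and attach to injured or inflamed surfaces of the organs around it, and they share that fluid with B-1 cells, which make natural IgM. Of the members, Gata6 encodes that transcription factor, Alox15 the 12/15-lipoxygenase that oxidizes fatty acids, Prg4 the lubricating glycoprotein lubricin, F5 coagulation factor V, Cd5l a secreted protein of tissue macrophages that binds IgM, and Tgfb2 a ligand of the TGF-beta family. None of the 6 belongs to these macrophages alone: Gata6, Prg4 and Tgfb2 are also used by mesothelial, smooth muscle or fibroblast-like cells, and Cd5l by resident macrophages of other organs. In bulk RNA, fewer cells of a type and less RNA per cell cannot be told apart.

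Promoter sequences of Cd5l, Tgfb2 and F5 are shown because GATA6 binds short DNA words built around GATA. They are the 250 bases before the RefSeq gene start and the first 30 after it (GRCm38.p6), read along the gene. Capitals mark the words AGATAA or AGATAG and TGATAA or TGATAG on either strand, and in capitals a word of the opposite strand appears as its reverse complement. The windows lie at chr3:87357631-87357910 (plus strand) for Cd5l, chr1:186705960-186706239 (minus strand) for Tgfb2 and chr1:164151585-164151864 (plus strand) for F5.
Cd5l: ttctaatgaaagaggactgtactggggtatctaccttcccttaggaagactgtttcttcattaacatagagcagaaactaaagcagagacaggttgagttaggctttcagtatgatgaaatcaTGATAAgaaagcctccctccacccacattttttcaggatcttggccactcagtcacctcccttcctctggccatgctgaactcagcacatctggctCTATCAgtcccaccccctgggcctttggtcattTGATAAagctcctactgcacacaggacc
Tgfb2: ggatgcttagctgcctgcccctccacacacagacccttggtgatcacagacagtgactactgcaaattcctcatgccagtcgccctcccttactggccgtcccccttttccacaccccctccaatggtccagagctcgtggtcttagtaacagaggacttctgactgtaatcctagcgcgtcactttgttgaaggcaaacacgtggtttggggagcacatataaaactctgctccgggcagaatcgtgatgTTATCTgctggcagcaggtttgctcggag
F5: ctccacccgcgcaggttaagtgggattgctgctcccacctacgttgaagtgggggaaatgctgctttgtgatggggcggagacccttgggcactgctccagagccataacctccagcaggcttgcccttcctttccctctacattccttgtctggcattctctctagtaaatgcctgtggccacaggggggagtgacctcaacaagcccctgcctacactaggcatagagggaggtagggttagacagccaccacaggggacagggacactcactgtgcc
The Cd5l window held 3 of these words, which began 127 and 31 bases before the start and at base 3 after it. That of Tgfb2 held 1, at base 2, and the F5 window held 0. Of 32851 such windows of 280 bases in the RefSeq table, 28.7% held at least 1 of the words and 7.21% at least 2. Letters in a window are a description and do not show that a factor binds there. Gata6, Alox15 and Prg4 are named only.

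All 6 genes were measured well above the lowest level that the depth could show. The totals were 13562340 to 18548024 counts per mouse, and 3 counts, taken as the floor, were at most 0.219 CPM (counts scaled to a common TMM library size), whereas the lowest value of any member was 4.67 CPM. Intervals and this floor cover counting error only. Several libraries stood out for genes of other tissues, and anti-BAFF Ab-treated mouse 5 for neutrophil genes. Summed epididymis genes reached 1864 CPM in mouse 2 of the control Ab group and 2018 CPM in anti-BAFF Ab-treated mouse 7. They were at 825 CPM in control Ab-treated mouse 6, 803 CPM in anti-BAFF Ab-treated mouse 5, and 14.6 to 140 CPM in the other mice. Liver genes were at 31.5 CPM in control Ab-treated mouse 9. Neutrophil genes were at 168 CPM in anti-BAFF Ab-treated mouse 5. Neutrophils can be part of the SVF, where the paper's flow cytometry found them higher after BAFF neutralization. The source of the neutrophil genes was not tested. Control Ab-treated mouse 1 was the highest of the 8 mice for 26.7% and the lowest for 26.2% of the 15963 genes tested.

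Per gene length, Cd5l had the highest mean level and F5 the lowest. The mean level over the 8 mice was 12.8 ± 11.7 FPKM (the CPM-like level per kilobase of gene length; SD, n = 8) for Cd5l, 7.13 ± 2.80 FPKM for Prg4, 4.91 ± 1.02 FPKM for Gata6, 4.76 ± 2.73 FPKM for Alox15, 4.32 ± 0.861 FPKM for Tgfb2 and 1.32 ± 0.461 FPKM for F5. Cd5l spread from 3.77 to 33.5 FPKM and so overlapped Prg4, which lay between 3.83 and 12.7 FPKM. Gata6, Alox15 and Tgfb2 differed by less than their spread, and F5 was the lowest of the 6 in each mouse.

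No member differed between the antibodies beyond the spread between mice. By edgeR's quasi-likelihood test, adjusted by Benjamini-Hochberg, 0 of the 6 had a p under 0.05, where 9 of 15963 genes did (0.0564%, all lower with anti-BAFF Ab). At an unadjusted p of 0.05, 0 of the 6 passed as well, against 1.90% of all genes (1.24% lower and 0.664% higher). DESeq2's Wald test and limma on log2(FPKM + 1) also gave 0 of 6, adjusted or not, where DESeq2 called 0.218% of the genes it fitted (0.208% lower and 0.00976% higher). The values of the 2 groups overlapped for all 6 members, and did not overlap for 1.48% of all genes tested (0.952% lower and 0.526% higher). The fitted differences were below 0 for 3 members and above 0 for the other 3, with a median log2 fold change of -0.23 beside 0.00 over all genes. The intervals below show which sizes of change the 4 mice per group still allow.

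**Figure D1:**
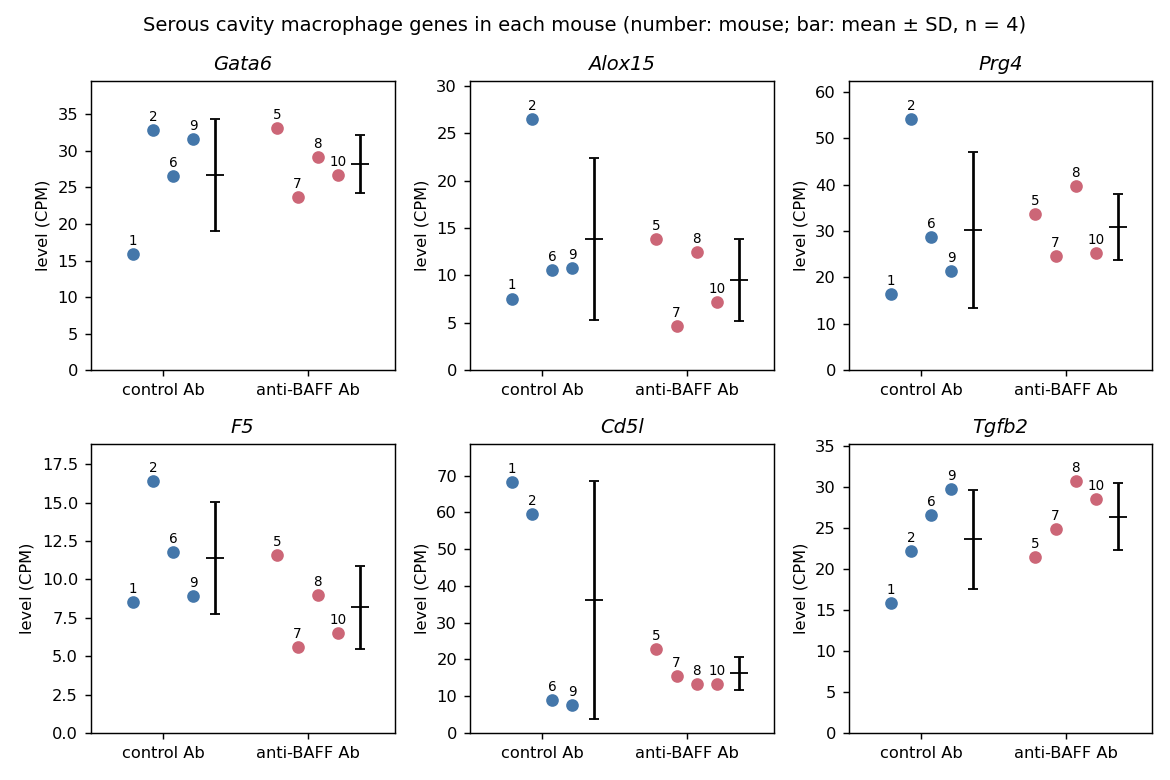
Level of each gene (y axis, CPM from 0) in the 4 control Ab-treated (blue) and 4 anti-BAFF Ab-treated mice (red), 1 point per mouse with its number, beside the mean ± SD of the group. Alox15, Prg4 and F5 were highest in control Ab-treated mouse 2, Cd5l was highest in control Ab-treated mice 1 and 2, and the groups overlapped for every gene.

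Gata6 (ENSMUSG00000005836), the factor that defines these macrophages, was at 15.9, 32.8, 26.6 and 31.6 CPM in control Ab-treated mice 1, 2, 6 and 9, and at 33.2, 23.8, 29.2 and 26.75 CPM in anti-BAFF Ab-treated mice 5, 7, 8 and 10. Control Ab-treated mouse 1 was the lowest, and the other 7 mice lay between 23.8 and 33.2 CPM. The group means were 26.7 ± 7.68 CPM (SD, n = 4) and 28.2 ± 3.98 CPM (SD, n = 4). The log2 fold change, anti-BAFF Ab over control Ab, was 0.08 (standard error 0.21, edgeR's quasi-likelihood test, adjusted p = 1.00), with a 95% interval from 0.756-fold to 1.47-fold. The sign turned without control Ab-treated mouse 1 (-0.12) and without anti-BAFF Ab-treated mouse 5 (-0.03).

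Alox15 (chromosome 11, 70344152 to 70352031, minus strand, build mm10), the lipoxygenase gene, was at 7.57, 26.5, 10.5 and 10.8 CPM in control Ab-treated mice 1, 2, 6 and 9. In anti-BAFF Ab-treated mice 5, 7, 8 and 10 it was at 13.8, 4.67, 12.5 and 7.17 CPM. A single control Ab-treated mouse, mouse 2, stood far above the rest, while mouse 7 was the lowest. The means were 13.9 ± 8.58 CPM and 9.53 ± 4.32 CPM (SD, n = 4 each), the log2 fold change being -0.55 (standard error 0.45, edgeR's quasi-likelihood test, adjusted p = 1.00) and an interval from 0.341-fold to 1.38-fold. This difference rested on mouse 2: without it the log2 fold change was -0.02, and without mice 2 and 7, the pair with the most epididymis RNA, it was 0.19. The part of epididymis RNA in the Alox15 values was not tested.

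Prg4 (chromosome 1, 150449412 to 150466165, minus strand), the lubricin gene, was at 16.4, 54.2, 28.7 and 21.3 CPM with control Ab and at 33.7, 24.7, 39.7 and 25.3 CPM with anti-BAFF Ab, in the same order of mice. The control Ab-treated mice held both the lowest and the highest value, so that the anti-BAFF Ab-treated mice fell between them. Group means were nearly equal, 30.1 ± 16.8 CPM and 30.9 ± 7.19 CPM (SD, n = 4 each), and the log2 fold change was 0.03 (standard error 0.34, edgeR's quasi-likelihood test, adjusted p = 1.00; interval 0.598-fold to 1.75-fold). It was 0.48 without control Ab-treated mouse 2 and -0.19 without control Ab-treated mouse 1.

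F5 (chromosome 1, 164151838 to 164220277, plus strand), coding for the clotting cofactor, was at 8.50, 16.4, 11.8 and 8.92 CPM in the control Ab-treated and at 11.6, 5.57, 9.0 and 6.51 CPM in the anti-BAFF Ab-treated mice, again in that order. Mouse 2 was once more the highest and mouse 7 the lowest. The means of 11.4 ± 3.63 CPM and 8.17 ± 2.70 CPM (SD, n = 4 each) gave a log2 fold change of -0.48 (standard error 0.28, edgeR's quasi-likelihood test, unadjusted p = 0.117, adjusted p = 1.00; interval 0.462-fold to 1.11-fold). Without control Ab-treated mouse 2 it was -0.25 and without anti-BAFF Ab-treated mouse 5 it was -0.71. F5 is also a liver gene. The mouse with liver transcripts, control Ab-treated mouse 9 (Alb at 24.8 CPM), had 8.92 CPM of F5, and the part of liver RNA in F5 was not tested.

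Cd5l (chromosome 3, 87357881 to 87371073, plus strand), the secreted macrophage protein gene, varied most. In control Ab-treated mice 1, 2, 6 and 9 it was at 68.3, 59.5, 8.85 and 7.68 CPM, a range of 8.89-fold within a single treatment, and in anti-BAFF Ab-treated mice 5, 7, 8 and 10 at 22.9, 15.5, 13.2 and 13.3 CPM. A pair of control Ab-treated mice was above all 4 anti-BAFF Ab-treated mice and the other pair below all 4. Counting error was far smaller than this gap: the 95% Poisson interval was 64.3 to 72.5 CPM in mouse 1 and 6.39 to 9.16 CPM in mouse 9. The means were 36.1 ± 32.3 CPM and 16.2 ± 4.56 CPM (SD, n = 4 each), and the log2 fold change was -1.16 (standard error 0.67, edgeR's quasi-likelihood test, unadjusted p = 0.118, adjusted p = 1.00), with an interval from 0.157-fold to 1.28-fold. It was -0.66 without control Ab-treated mouse 1 and -0.81 without control Ab-treated mouse 2.

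Tgfb2 (chromosome 1, 186622792 to 186705989, minus strand), the TGF-beta ligand gene, was at 15.9, 22.2, 26.6 and 29.8 CPM with control Ab and at 21.4, 24.8, 30.7 and 28.6 CPM with anti-BAFF Ab. As for Gata6, control Ab-treated mouse 1 was lowest, but the rest were ordered differently. The means were 23.6 ± 6.02 CPM and 26.4 ± 4.10 CPM (SD, n = 4 each), the log2 fold change being 0.16 (standard error 0.19, edgeR's quasi-likelihood test, adjusted p = 1.00; interval 0.824-fold to 1.51-fold) and of -0.01 without control Ab-treated mouse 1.

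**Figure D2:**
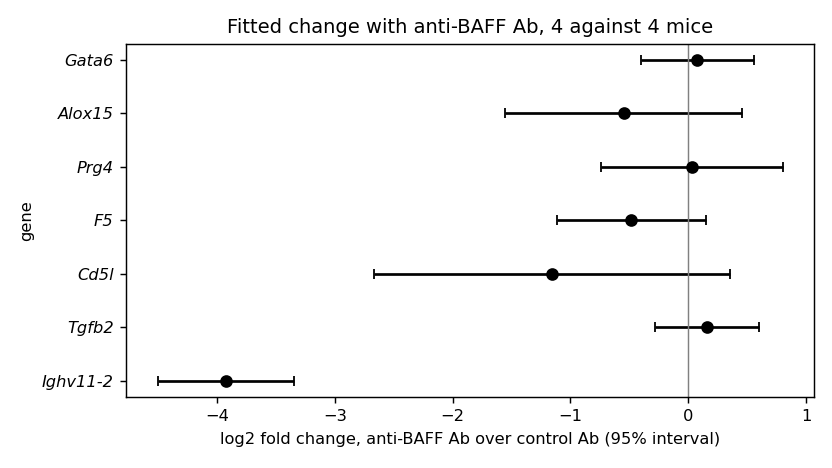
Fitted log2 fold change, anti-BAFF Ab over control Ab (x axis), with its 95% interval for the 6 genes and for Ighv11-2, from edgeR's fit to 4 against 4 mice. All 6 intervals include 0, that of Cd5l is the widest (-2.67 to 0.36), and that of Ighv11-2 lies between -4.51 and -3.35.

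The members differed in how much they varied from mouse to mouse within a treatment. The biological coefficient of variation in edgeR's fit, the spread left after counting error, was 63.2% for Cd5l, 44.1% for Alox15, 34.5% for Prg4, 29.2% for F5, 22.7% for Gata6 and 21.2% for Tgfb2, and the median over all genes tested was 18.6%. Cd5l stood at percentile 97.7 and Alox15 at percentile 94.3 of all genes, while Gata6 (64.1) and Tgfb2 (59.3) were closer to the middle. The largest coefficients thus belonged to the lipoxygenase and the secreted protein, and the smallest to the transcription factor and the growth factor.

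Gata6, Alox15, Prg4 and F5 had positive correlations with each other, whereas Cd5l and Tgfb2 ran in opposite directions. Among 15 pairs of members, the correlation of log2 CPM across the 8 mice was above 0 in 11, and it passed 0.05 after Benjamini-Hochberg adjustment over the 15 pairs in 2 (exact permutation test over all 40320 pairings, two-sided). With Spearman's rho, 0 of the 15 passed after adjustment, and the lowest adjusted p was 0.0769 (exact permutation test). Alox15 and F5 rose and fell together (Pearson's r = 0.93, exact permutation p = 0.00136, adjusted p = 0.0205; rho = 0.857, exact permutation p = 0.0107). Without mice 2 and 7, the farthest from the median of both genes, r was 0.75 over 6 mice (exact permutation p = 0.0764), so that the call rested on these mice. Centred on the mean of each treatment, r was 0.94. Cd5l and Tgfb2 had a negative correlation (r = -0.85, exact permutation p = 0.00441, adjusted p = 0.0331; rho = -0.857, exact permutation p = 0.0107). Without control Ab-treated mice 1 and 2 this r was -0.72 (exact permutation p = 0.100), without mice 1 and 5 it was -0.79 (exact permutation p = 0.0486), and centred on treatment means it was -0.84. Gata6 correlated with Prg4 (r = 0.72, exact permutation p = 0.0466, adjusted p = 0.175), and Alox15 with Prg4 (r = 0.77, exact permutation p = 0.0288, adjusted p = 0.144), but neither passed after adjustment. Without control Ab-treated mice 1 and 2, the farthest from the median of Prg4, these r were 0.26 (exact permutation p = 0.617) and 0.55 (exact permutation p = 0.260). Cd5l against Gata6 was at r = -0.39 (exact permutation p = 0.347, adjusted p = 0.579). All 6 pairs among Gata6, Alox15, Prg4 and F5 had an r above 0, from 0.45 (Gata6 with F5) to 0.93, and from 0.65 to 0.94 when centred on treatment means. This grouping was made after the r values were seen. The pairs with an r below 0 all held Cd5l or Tgfb2. Each gene was detected in each mouse.

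**Figure D3:**
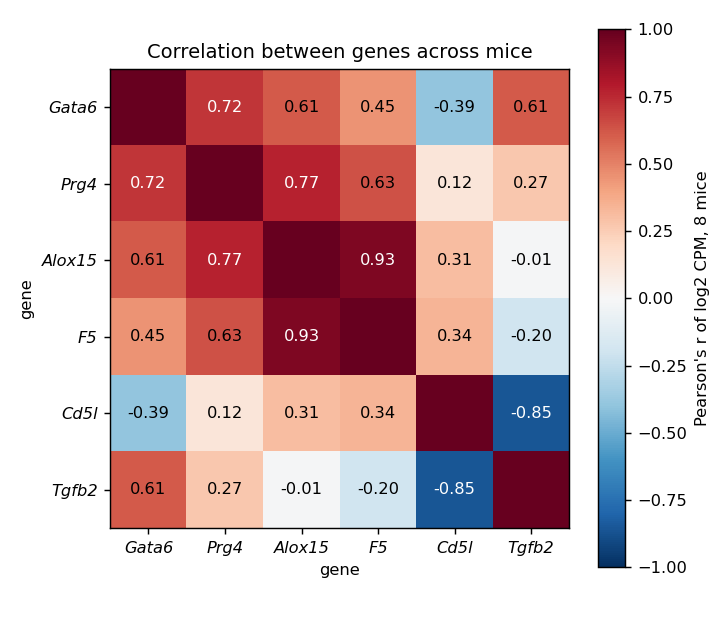
Pearson's r of log2 CPM over 8 mice for each pair of the 6 genes (both axes; red above 0, blue below 0). Alox15 with F5 had the highest r (0.93), Cd5l with Tgfb2 the lowest (-0.85), and Cd5l did not exceed 0.34 with any other gene.

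Genes most like each member over the 8 mice were ranked by Pearson's r among the genes tested, as a description. F5 was the sixth most similar gene to Alox15, and Alox15 the seventh to F5. In likeness to Gata6, Prg4 had rank 1322, Alox15 rank 2412 and F5 rank 4034 among the genes tested. The closest to Alox15 were Ifit3b (r = 0.95), Jade2 (0.95) and the phosphatase gene Dusp1 (0.95), and those closest to F5 were Jade2 (0.96), Fam107a (0.96) and Wrnip1 (0.95). Prg4 was most like Lipe (0.96), the hormone-sensitive lipase of fat cells, Ston1 (0.96) and Ppp1r3d (0.95). Gata6 was closest to Itga9 (0.99), an integrin subunit gene, AI661453 (0.96) and A730046J19Rik (0.96). Tgfb2 was closest to Bcor (0.99), a transcriptional corepressor gene, Rdh10 (0.98), a retinol dehydrogenase of retinoic acid synthesis, and Kazn (0.98). Genes close to Cd5l were Mcph1 (0.97) and Smim20 (0.97). Only Jade2 stood in the first 3 of more than 1 member. To the mean of the 6 members, the closest were Tbc1d9b (0.96), Jade2 (0.95), Eif4ebp2 (0.94), Vsig4 (0.93), a complement receptor of resident macrophages, Nfkbil1 (0.92), Zbtb16 (0.92), Smpdl3b (0.91), Gtf2i (0.90), 1700047I17Rik2 (0.89) and Lysmd2 (0.89).

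A wider list of 17 genes used by large peritoneal macrophages, all of them tested, held 0 genes with an adjusted and 0 with an unadjusted p under 0.05 (edgeR's quasi-likelihood test). Its log2 fold changes ran from -0.69 to 0.51, with 8 below 0, 9 above 0 and a median of 0.00, the same as over all genes. Per length the highest were Thbs1, the matrix protein thrombospondin-1 (380 FPKM, log2 fold change 0.27), Slpi, a protease inhibitor (82.5 FPKM, -0.47), and Bhlhe40, a transcription factor (64.6 FPKM, -0.02). Of the 17 genes, 11 were lowest in control Ab-treated mouse 1, the share for all genes being 26.2%, and 5 were highest in control Ab-treated mouse 2, the share for all genes being 11.3%. Mesothelial (11 of 11), smooth muscle (4 of 5) and fibroblast genes (4 of 6) were also mostly lowest in mouse 1. The part of such cells in this wider list was not tested. The following were picked after their values were seen. Vsig4 was at 11.1 CPM in mouse 2 and between 5.52 and 7.05 CPM in the other 7 mice, as Alox15 and F5 had their highest value there. Marco, a scavenger receptor gene, reached 11.9 CPM in mouse 1 of the control Ab group, 5.25 CPM in anti-BAFF Ab-treated mouse 5 and 4.02 CPM in control Ab-treated mouse 2, the mice in which Cd5l was highest, and between 0.805 and 3.07 CPM in the others. F10, coagulation factor X, was also highest in control Ab-treated mouse 1 (53.5 CPM) and anti-BAFF Ab-treated mouse 5 (44.5 CPM), with 27.6 to 33.8 CPM in the rest. Marco and F10 were the only 2 of the 17 genes highest in mouse 1, the share for all genes being 26.7%. Timd4 and Selp were instead among the 11 lowest there, at 3.97 and 70.9 CPM. Their highest values were in anti-BAFF Ab-treated mouse 10 (Timd4, 11.4 CPM) and control Ab-treated mouse 6 (Selp, 321 CPM).

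Regulators of these macrophages, 14 genes from the retinoid receptors Rxra and Rara to the retinoic acid enzyme Aldh1a2, held 0 genes past the adjusted threshold. At an unadjusted p of 0.05, where 1.90% of all genes passed, 1 of the 14 did. That gene was Csf1, the macrophage growth factor, at a log2 fold change of 0.30 (standard error 0.13, unadjusted p = 0.0401, adjusted p = 1.00, edgeR's quasi-likelihood test). Most abundant per length were the transcription factor genes Cebpb (499 FPKM, log2 fold change -0.02) and Klf4 (311 FPKM, -0.29) and the receptor Csf1r (227 FPKM, 0.05). Log2 fold changes were below 0 for 11 and above 0 for 3 of the 14 genes (median -0.04). Of the 14 genes, 4 were lowest in control Ab-treated mouse 1, near the share of 26.2% for all genes. Among them Wt1, the stromal factor upstream of retinoic acid, had 47.8 CPM there and 85.9 to 162 CPM in the other mice. Gata6 and Tgfb2 were lowest in the same mouse. Rxra, however, was highest in it (127 CPM). Aldh1a2 was at 39.4 CPM there and lower, at 36.1 to 38.9 CPM, in anti-BAFF Ab-treated mice 5, 7 and 8. A link between these levels was not tested.

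A list of 9 genes used by small peritoneal macrophages, the largely monocyte-derived partners of the large ones, held 0 genes past the adjusted threshold. At an unadjusted p of 0.05, where 1.90% of all genes passed (1.24% lower), 2 of the 9 did, both lower with anti-BAFF Ab. These were Mgl2, a lectin gene (log2 fold change -0.60, unadjusted p = 0.0127, adjusted p = 1.00, edgeR's quasi-likelihood test), and Retnla, the secreted protein RELM-alpha (-0.88, unadjusted p = 0.0456, adjusted p = 1.00, edgeR's quasi-likelihood test). Log2 fold changes were below 0 for 7 and above 0 for 2 of the 9 genes. They ran from -0.88 to 0.18, with a median of -0.15. Of the other abundant members, Clec10a was at -0.03 and Fcrls at -0.24. Retnla averaged 537 FPKM and Clec10a 50.6 FPKM over all mice, where Gata6 averaged 4.91 FPKM. The part of other macrophages of the fat in this list was not tested. The groups did not overlap for 1 of the 9, Mgl2, the share for all genes being 1.48%. Of the 9 genes, 7 were lowest in anti-BAFF Ab-treated mouse 7, the share for all genes being 9.41%, among them Mgl2 (24.7 CPM there) and Retnla (127 CPM), and the part of this library in the lower values was not tested.

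Lists of other macrophages of fat held no called gene. General macrophage genes summed to 8324 to 13337 CPM in the control Ab-treated and 9396 to 10869 CPM in the anti-BAFF Ab-treated mice, and 0 of 10 passed the test (median log2 fold change 0.00; Lyz2 0.00, C1qa -0.07, C1qb -0.02). The fat resident list summed to 2654 to 3639 CPM and 2443 to 3392 CPM, with 0 of 9 called (median -0.01; Mrc1 -0.01, Gas6 -0.09, Pf4 0.08). For the lipid-associated list, which marks macrophages that clear lipid, the sums were 7244 to 12346 CPM and 7881 to 9960 CPM, with 0 of 8 called (median 0.06; Gpnmb 0.00, Lpl 0.02, Lgals3 0.09). Control Ab-treated mouse 1 had the highest general and lipid-associated sums, and its Cd5l was also the highest. Control Ab-treated mouse 2, with Cd5l nearly as high at 59.5 CPM, had a lipid-associated sum of 7434 CPM, within the 7244 to 7499 CPM of control Ab-treated mice 6 and 9, whose Cd5l was at 8.85 and 7.68 CPM. The fat resident sum was highest in control Ab-treated mouse 2 (3639 CPM) and anti-BAFF Ab-treated mouse 5 (3392 CPM) and lowest in anti-BAFF Ab-treated mouse 7 (2443 CPM). The mean log2 CPM of the 6 members was likewise highest in mice 2 (4.99) and 5 (4.41) and lowest in mouse 7 (3.77). Other mice were ordered differently: anti-BAFF Ab-treated mouse 10 had the third highest fat resident sum (3100 CPM) but the second lowest member mean (3.93). The summed regulator list had the same extremes in mice 2, 5 and 7 (5039, 4669 and 3617 CPM). Of the 9 fat resident genes, 6 were highest in mouse 2 and 6 were lowest in mouse 7, where all genes gave 11.3% and 9.41%. The part of these macrophages in the levels of the 6 genes was not tested.

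**Figure D4:**
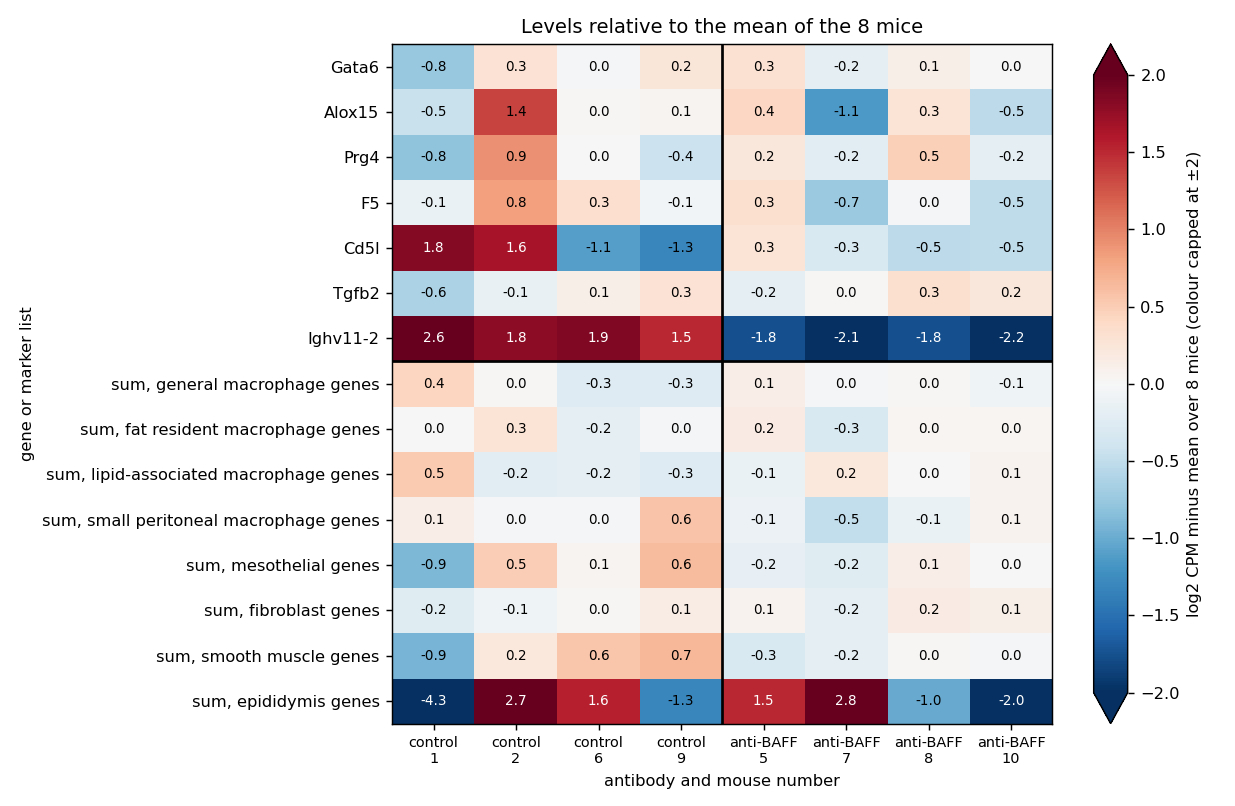
Log2 CPM of each gene, or of the summed genes of a marker list (rows), minus its mean over the 8 mice, by antibody and mouse number (columns; colour limited to ±2, the number is printed in each cell). Control Ab-treated mouse 1 was low for Gata6, Prg4, Tgfb2, mesothelial and smooth muscle genes and high for Cd5l, while Ighv11-2 divided the mice by antibody.

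Cells that line or support the fat pad could contribute Gata6, Prg4 and Tgfb2. Mesothelial genes summed to 289 CPM in control Ab-treated mouse 1, and to between 455 and 834 CPM in the other 7 mice. All 11 genes of the list were lowest in mouse 1, where Gata6, Prg4 and Tgfb2 were also lowest, and none was at 0. Smooth muscle genes summed to 261 CPM in that mouse and 401 to 783 CPM in the others. Both lists held 0 genes past the adjusted threshold in edgeR's quasi-likelihood test and 0 past an unadjusted p of 0.05, with median log2 fold changes of -0.21 for 11 mesothelial genes (Upk3b -0.25, Krt19 -0.32, Msln -0.17) and -0.36 for 5 smooth muscle genes (Acta2 -0.36, Myh11 -0.44, Des -0.19). The 6 fibroblast genes gave 0 calls and a median of 0.04 (Dcn 0.06, Col1a1 0.14, Col15a1 0.02). They summed to 5870 CPM in control Ab-treated mouse 1 and 6043 to 7734 CPM in the others. Of these 6 genes, 4 were lowest and 1 was highest in mouse 1. Prg4 did not track the mesothelial sum throughout: control Ab-treated mouse 9 had the highest mesothelial sum, 834 CPM, and 21.3 CPM of Prg4, the second lowest value. The part of these cells in the levels of the 6 genes was not tested. Eosinophil genes, which matter because eosinophils can also use Alox15, summed to at most 9.92 CPM in any mouse, and Epx, the eosinophil peroxidase gene, had 0 counts in all 8. The part of eosinophils in the Alox15 levels was not tested. Platelet genes, relevant to F5, summed to 12.1 to 19.7 CPM and gave 0 calls among 3 tested.

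Ighv11-2 (chromosome 12, 114048241 to 114048812), by contrast, separated the antibodies without overlap. It was at 85.9, 48.9, 51.2 and 40.0 CPM in control Ab-treated mice 1, 2, 6 and 9, and at 4.17, 3.38, 4.18 and 3.14 CPM in anti-BAFF Ab-treated mice 5, 7, 8 and 10. With anti-BAFF Ab it fell by 3.93 on the log2 scale (standard error 0.26, edgeR's quasi-likelihood test, adjusted p = 0.000631), a range of 0.0440-fold to 0.0981-fold in its 95% interval. The intervals of Gata6, Prg4, Tgfb2, Alox15, F5 and Cd5l ended no lower than 0.157-fold, so that none reached the interval of Ighv11-2.

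Because the mice fall into separate clusters of Ighv11-2 by antibody, with 4 mice in each, no correlation over the 8 mice was computed with the members, and only the order within each treatment is given. Among the control Ab-treated mice, the order of Ighv11-2 from high to low was mouse 1, 6, 2 and 9. Mouse 1, with the most Ighv11-2, had the most Cd5l and the least Gata6, Alox15, Prg4, F5 and Tgfb2 of its group. For Ighv12-3, another V gene of B-1 cells, the order of the control Ab-treated mice was the reverse. It was at 2.85, 7.03, 3.37 and 10.6 CPM in mice 1, 2, 6 and 9. Mice 6 and 2 stood the other way round for Cd5l, at 8.85 and 59.5 CPM, than for Ighv11-2, at 51.2 and 48.9 CPM. The 95% Poisson intervals of Ighv11-2 overlapped in these mice (47.5 to 55.1 and 45.6 to 52.3 CPM), so that their Ighv11-2 order was within counting error. Among the anti-BAFF Ab-treated mice, mice 5 and 8 had the higher values of Ighv11-2 and also of Gata6, Alox15, Prg4 and F5. Their Ighv11-2 values rested on 57 to 64 counts per mouse, with 95% Poisson intervals from 2.38 to 4.07 CPM in mouse 10 and from 3.22 to 5.33 CPM in mouse 8, so this order was within counting error.

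**Figure D5:**
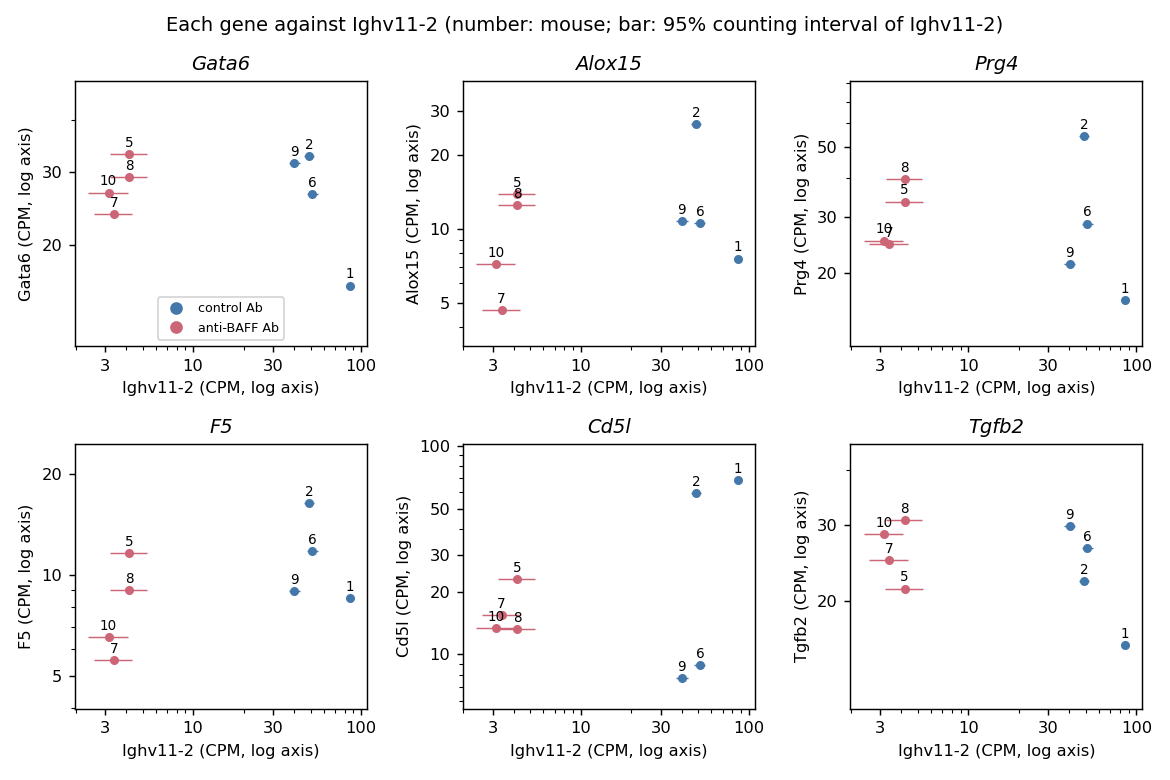
Each of the 6 genes (y axis, CPM, log axis) against Ighv11-2 (x axis, CPM, log axis) in 4 control Ab-treated (blue) and 4 anti-BAFF Ab-treated mice (red), 1 numbered point per mouse, with the 95% counting interval of Ighv11-2 as a horizontal bar. The mice form separate clusters on the x axis (40.0 to 85.9 and 3.14 to 4.18 CPM) and overlap on the y axis.

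The other B-1 and B cell genes were set beside these values. Of 7 tested B-1 genes, 2 were called lower, Ighv11-2 and Ighv12-3 (log2 fold change -3.91, edgeR's quasi-likelihood test, adjusted p = 0.0448), both V genes and both known from earlier results of these data. The share for all genes was 0.0564%. The remaining 5, which are also used by other lymphocytes or macrophages, had log2 fold changes from -0.45 (Cd5) to 0.14 (Arid3a), with Spn, the surface protein CD43, at 0.06. Among 10 B cell genes 0 passed the adjusted threshold and 8 had an unadjusted p under 0.05, the share for all genes being 1.90%. Their median log2 fold change was -1.32 (Cd79a -1.77, Cd79b -0.68, Ebf1 0.02). The mean log2 CPM of the 6 macrophage genes averaged 4.27 ± 0.48 in the control Ab group and 4.10 ± 0.30 in the anti-BAFF Ab group (SD, n = 4 each), a difference of -0.17 that was smaller than the spread between mice and became 0.07 without control Ab-treated mouse 2.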

How the data were processed

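Per the labels, 8 SVF samples were assigned to control Ab or anti-BAFF Ab by their titles. Sequencing was paired-end (NovaSeq), and the authors deposited raw counts per gene, 1 column per mouse, with gene coordinates (mm10 in the submitters' notes). The deposited table also holds gene lengths, an other value in bases, used for FPKM. The aligner, counting tool and strand setting are not given in the sources used here. The closest replicates differed beyond sampling noise (chi-square per degree of freedom at least 7.91).

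The test was edgeR's (version 4.0.16, R 4.3.3; filterByExpr, minimum count 10, TMM, quasi-likelihood test, treatment as the only term). P-values were adjusted over 15963 genes. CPM used counts on tested genes times TMM factors, log2 CPM a prior count of 2, and standard errors came from the F statistic. Intervals used 3.14 prior plus the residual degrees of freedom. DESeq2 1.42.0 and limma 3.58.1 (log2(FPKM + 1)) were alternatives, and all were tested on simulated data. Correlations were computed in Python 3.11.15 with exact permutation. Members and lists (macrophages, B cells, mesothelium, fibroblasts, smooth muscle, platelets, eosinophils, neutrophils, epididymis, liver) were chosen with earlier results of these data known. Named were the members, called genes, the 3 most abundant genes per length of lists described, and the genes most like each member. Marco, F10, Timd4, Selp, Csf1, Rxra, Aldh1a2, Mgl2, Wt1, Ighv12-3, Cd5, Arid3a, Alb and Epx were named or given per mouse after their values were seen. A gene among those most like Cd5l is not reported here. The mice were not paired. Alternatives were other scalings, filters and tests and leaving out mice. Flow cytometry and antibody data were not analysed here. Each library is 1 mouse. The p-values of the fits set a group difference against the spread between mice. Those of the correlations come from re-pairing the values of each pair of genes across the mice.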

Additional observations from a re-analysis of the deposited data

Results flagged for a closer look

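In 48 groups of 4 mice (6 members, Ighv11-2, the mean of the members and 16 marker lists, per antibody), 6 had 1 mouse separated from the rest by more of the group's range than Dixon's 95% criterion allows, and chance gives about 2.4 of 48 (1 in 20). Control Ab-treated mouse 2 stood apart for Alox15, at 26.5 CPM with the next mouse of its group at 10.8 CPM, a gap of 0.831 of the range and just past the criterion. The same mouse stood apart for the mean log2 CPM of the 6 members, at 4.99 with the next mouse at 4.08. Control Ab-treated mouse 1 stood apart for the summed lipid-associated macrophage genes, at 12346 CPM against 7499 CPM in the next mouse. It also stood apart for the summed B-1 cell list, at 184 CPM against 117 CPM. In that list, Ighv11-2 was highest of its group in mouse 1 (85.9 CPM), but Ighv12-3 was lowest there (2.85 CPM). Neutrophil genes were set apart in anti-BAFF Ab-treated mouse 5, at 168 CPM against 37.5 CPM. Control Ab-treated mouse 9 stood apart for liver genes, at 31.5 CPM against 0.585 CPM. No group was set apart by Cd5l, since a pair of control Ab-treated mice was high together.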

How the results depend on the processing

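No paired analysis was possible because the mouse numbers differ between the groups. None of the 6 members passed an adjusted p of 0.05 under any of the 17 alternatives, and in 3 fits with a mouse left out 1 member had an unadjusted p under 0.05 (Cd5l without control Ab-treated mouse 6 or 9, F5 without anti-BAFF Ab-treated mouse 5). The number of genes called, 9, became 19 without a filter on low counts, 67 with DESeq2 and 2 with the robust option. It was 3 with the pair of highest epididymis signal (mice 2 and 7) left out, an alternative chosen after seeing the data. With a mouse left out it ranged from 2 to 9. Leaving out mice 2 and 7 turned the log2 fold change of Alox15 to 0.19. Mice 5 and 6, with the next highest epididymis sums, stayed in that fit. With a mouse left out, log2 fold changes ranged from -0.12 to 0.19 for Gata6, from -0.79 to -0.02 for Alox15, from -0.19 to 0.48 for Prg4, from -0.71 to -0.25 for F5, from -1.49 to -0.66 for Cd5l and from -0.01 to 0.29 for Tgfb2. Prg4 turned to -0.19 and -0.10 without control Ab-treated mice 1 and 9 and to -0.03 and -0.12 without anti-BAFF Ab-treated mice 5 and 8; Gata6 turned to -0.12 without control Ab-treated mouse 1 and -0.03 without anti-BAFF Ab-treated mouse 5, and Tgfb2 to -0.0094 without control Ab-treated mouse 1. The cause was not tested. Scaling, filters, DESeq2 and limma kept the direction of all 6, and Ighv11-2 kept its call under all 17. The difference of the members' mean ranged from -0.28 to 0.07 with a mouse left out and from -0.19 to -0.17 otherwise. Pairs with r above 0 numbered 9 to 12 with a mouse left out and 11 or 12 otherwise.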
